A study of Mus musculus with 4 samples.

Results

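Fcgr1, Fcgr2b, Fcgr3, Fcgr4 and Fcer1g encode the mouse Fc gamma receptors and the signalling chain that the activating ones share, and these 5 genes of the 41862 genes in the count files were followed in single cells sorted from the mouse central nervous system. They were chosen by name, and all 5 were detected. Their UMIs (unique molecular identifiers, 1 per captured RNA molecule) were summed in microglia-like, monocyte-like and border macrophage-like cells among barcodes with at least 500 UMIs and at most 20% mitochondrial UMIs. In microglia-like cells from mice with experimental autoimmune encephalomyelitis (EAE), Fcgr4 was 12.6-fold higher than in naive mice in the TRAIL+ gate and 23.7-fold higher in the TRAIL- gate, while Fcer1g had a ratio of 0.990 and 0.988.

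Fc gamma receptors bind the constant part of IgG and are a main route by which microglia and macrophages take up antibody-coated material. Fcgr1 (CD64, high affinity), Fcgr3 (CD16) and Fcgr4 (the mouse receptor closest to human CD16A) are activating receptors that signal through the tyrosine-based activation motif of the Fc receptor gamma chain, the product of Fcer1g. Fcgr2b (CD32B) carries an inhibitory motif of its own that recruits the phosphatase SHIP1, encoded by Inpp5d, so the balance of activating to inhibitory receptors is used as a measure of how readily such a cell responds to immune complexes.

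The 4 libraries came from C57BL6 mice in which CreERT2 under the astrocyte promoter Aldh1l1 switches on the red fluorescent protein TdTomato. All cells were sorted as TdTomato+ and positive for the lysosomal protein LAMP1 at the surface, then split by surface TRAIL, a ligand of death receptors. The groups were EAE TRAIL+, EAE TRAIL-, naive TRAIL+ and naive TRAIL-, with 1 library each, from 3 mice at the peak of EAE and 3 naive mice. EAE had been induced with 150 µg of the myelin peptide MOG35-55 in complete Freund's adjuvant, and the other mice are labelled naive. Whether the mice of a group were pooled was not given in sources used here. With 1 library per group no difference between groups has a replicate check, and no test was made. The intervals printed here are exact 95% intervals that cover the counting of UMIs or cells only, not the variation between mice.

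The labels give the cell type as astrocytes. The filter kept 1814 EAE TRAIL+, 1597 EAE TRAIL-, 2229 naive TRAIL+ and 2259 naive TRAIL- barcodes (7899 of 12987), and the astrocyte-like clusters held 8, 3, 142 and 35 of them in that order. The microglia-like class held 1626, 312, 1887 and 320 cells and the monocyte-like class 136, 225, 22 and 18. The border macrophage-like class, after the macrophages of meninges and perivascular spaces, held 19, 2, 59 and 3 cells, so only its TRAIL+ libraries were compared. Median depth in microglia-like cells was 1885 and 1888 UMIs in the EAE TRAIL+ and EAE TRAIL- libraries, against 1552 and 1507.5 UMIs in the naive TRAIL+ and naive TRAIL- libraries. The astrocyte gene Aldh1l1 stood at 4.28, 3.24, 2.57 and 1.98 CPM (UMIs per 1000000 UMIs of the class) in microglia-like cells of the 4 libraries in the same order, and the microglial genes P2ry12 and Tmem119 at 892 to 2887 and 627 to 805 CPM. Across the 4 libraries 604 kept barcodes carried a sequence that another library also held, and 77 kept barcodes were called doublets and left in.

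The regions just before the start sites of 3 of the genes are shown because these genes differed most between EAE and naive cells (Fcgr4 and Fcgr1) or carry the opposite signal (Fcgr2b). Each line gives 250 bases up to the start site in the RefSeq annotation of GRCm38.p6, on the strand of the gene. Capitals mark matches to 3 short words searched on both strands, a PU.1-type word (GAGGAAG, reverse CTTCCTC), a gamma-activated-type word (TTCNNNGAA) and an interferon-stimulated-response-type word (GAAA, any 2 bases, GAAA, or the reverse, TTTC, any 2 bases, TTTC). The Fcgr4 window is chr1:171018676-171018925 (+ strand), the Fcgr1 window chr3:96293970-96294219 (- strand) and the Fcgr2b window chr1:170976072-170976321 (- strand).
Fcgr4: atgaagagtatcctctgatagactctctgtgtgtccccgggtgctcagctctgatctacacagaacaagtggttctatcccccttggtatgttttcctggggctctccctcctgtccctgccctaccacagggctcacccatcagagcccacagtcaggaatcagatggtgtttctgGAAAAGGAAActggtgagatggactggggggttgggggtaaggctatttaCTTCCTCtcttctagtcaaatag
Fcgr1: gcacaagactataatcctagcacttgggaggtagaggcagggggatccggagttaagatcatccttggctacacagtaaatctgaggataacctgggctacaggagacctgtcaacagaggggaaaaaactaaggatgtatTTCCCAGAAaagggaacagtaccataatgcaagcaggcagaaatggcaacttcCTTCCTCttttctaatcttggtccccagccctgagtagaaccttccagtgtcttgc
Fcgr2b: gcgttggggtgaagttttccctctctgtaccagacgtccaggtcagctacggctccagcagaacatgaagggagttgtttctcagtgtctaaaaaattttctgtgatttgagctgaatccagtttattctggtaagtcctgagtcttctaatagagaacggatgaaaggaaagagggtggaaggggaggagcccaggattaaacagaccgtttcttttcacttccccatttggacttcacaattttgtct
The Fcgr4 window held the PU.1-type word as CTTCCTC, from -23 to -17 relative to the start, and the interferon-stimulated-response-type word as GAAAAGGAAA, from -73 to -64. The Fcgr1 window held the PU.1-type word as CTTCCTC, from -56 to -50, and the gamma-activated-type word as TTCCCAGAA, from -109 to -101. The windows of both Fcgr3 start sites held only the PU.1-type word, and the Fcgr2b and Fcer1g windows held none of the 3 words. Of 32851 windows of the same length, 10.6% held the PU.1-type word, 7.02% the gamma-activated-type word and 2.98% the interferon-stimulated-response-type word, so each match is a description of the letters and not a mapped site.

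Fcgr2b, Fcgr4, Fcgr3 and Fcer1g lie within 275749 bases of chromosome 1, and Fcgr1 lies on chromosome 3 (GRCm38). In the gene annotation of that build Fcgr4 is the 1 member on the + strand (chr1:171018920-171029761), against Fcgr2b (chr1:170958617-170976547), Fcgr3 (chr1:171051174-171064935), Fcer1g (chr1:171229572-171234365) and Fcgr1 (chr3:96282909-96293969) on the - strand. The Fcgr2b window and the windows of both Fcgr3 start sites lie inside these gene spans, so RefSeq and this annotation place those starts differently. The bases before the outer starts of these genes were not searched for the words. Fcgr2b is overlapped by the antisense gene Gm38204. Whether the counting used strand was not given in sources used here, so UMIs of that pair may not be separable. No stretch of 50 bases in the last 400 bases of any member transcript was shared with another member. Across whole transcripts Fcgr3 and Fcgr2b, the closest pair, shared 166 such stretches, 9.58% of the Fcgr3 stretches and 2.92% of the Fcgr2b stretches.

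Of the 5 genes Fcgr4 had the largest ratio of EAE over naive microglia-like cells in both gates. Its level was 130 CPM (118 to 143; 425 UMIs) in the EAE TRAIL+ library, against 10.3 CPM (7.04 to 14.5; 32 UMIs) in the naive TRAIL+ library. In the other gate it was 188 CPM (155 to 226; 116 UMIs) in the EAE TRAIL- library, against 7.93 CPM (2.16 to 20.3; 4 UMIs) in the naive TRAIL- library. Neither pair of intervals overlapped, and the ratios of EAE over naive were 12.6 (8.82 to 18.7) and 23.7 (9.02 to 88.5).

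Fcgr1, the high-affinity receptor, was also higher in both EAE libraries. It had 339 CPM (319 to 360) in EAE TRAIL+ against 177 CPM (163 to 193) in naive TRAIL+ microglia-like cells, a ratio of 1.91 (1.73 to 2.12). Among TRAIL- cells it had 358 CPM (313 to 409) in EAE against 160.5 CPM (127 to 199) in naive cells, a ratio of 2.23 (1.72 to 2.92). The 2-fold mark fell between these ratios, and the TRAIL- ratio was 1.39 without the cluster led by antigen presentation genes, described with the clusters, and 3.03 without cells of low microglial marker content. Fcgr3, the CD16 receptor and the activating receptor with most UMIs, was at 1455 CPM (1414 to 1497) in EAE TRAIL+ against 1124 CPM (1087 to 1162) in naive TRAIL+ cells, a ratio of 1.29 (1.24 to 1.35). Among TRAIL- cells Fcgr3 was at 1042 CPM (963 to 1126) in EAE against 931 CPM (849 to 1019) in naive cells, and these intervals overlapped (ratio 1.12, 0.992 to 1.26).

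The inhibitory receptor gene lay on the same side as the activating ones. Fcgr2b stood at 442 CPM (420 to 466) in EAE TRAIL+ against 277 CPM (259 to 296) in naive TRAIL+ microglia-like cells, a ratio of 1.60 (1.47 to 1.74). TRAIL- cells had 413 CPM (364 to 467) in EAE against 224 CPM (185 to 269) in naive cells, a ratio of 1.85 (1.47 to 2.33). The shared signalling chain did not follow the receptors. Fcer1g was at 1205 CPM in the EAE and 1217 CPM in the naive TRAIL+ library, and at 1229 CPM in the EAE and 1244 CPM in the naive TRAIL- library, and all 4 intervals overlapped (the EAE over naive ratios had intervals of 0.946 to 1.04 and 0.887 to 1.10).

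Counting a gene as higher at 2-fold or more, 1 of the 5 members (Fcgr4) was higher in EAE in the TRAIL+ gate, where 2.37% of 3211 compared genes were higher and 0.405% were lower. In the TRAIL- gate 2 of the 5 (Fcgr4 and Fcgr1) were higher, where 8.17% of 3270 compared genes were higher and 8.44% were lower. The median log2 ratio was 0.68 over the members and -0.05 over all compared genes in the TRAIL+ gate, and 0.88 and -0.07 in the TRAIL- gate. Scaling by trimmed means (TMM) in place of UMI totals moved every TRAIL+ ratio by -0.16 on the log2 scale and turned the split of calls there, 76 higher and 13 lower, into 60 higher and 34 lower. Under that scaling Fcgr4, Fcgr1, Fcgr2b and Fcgr3 were still above 1 in both gates.

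**Figure D1:**
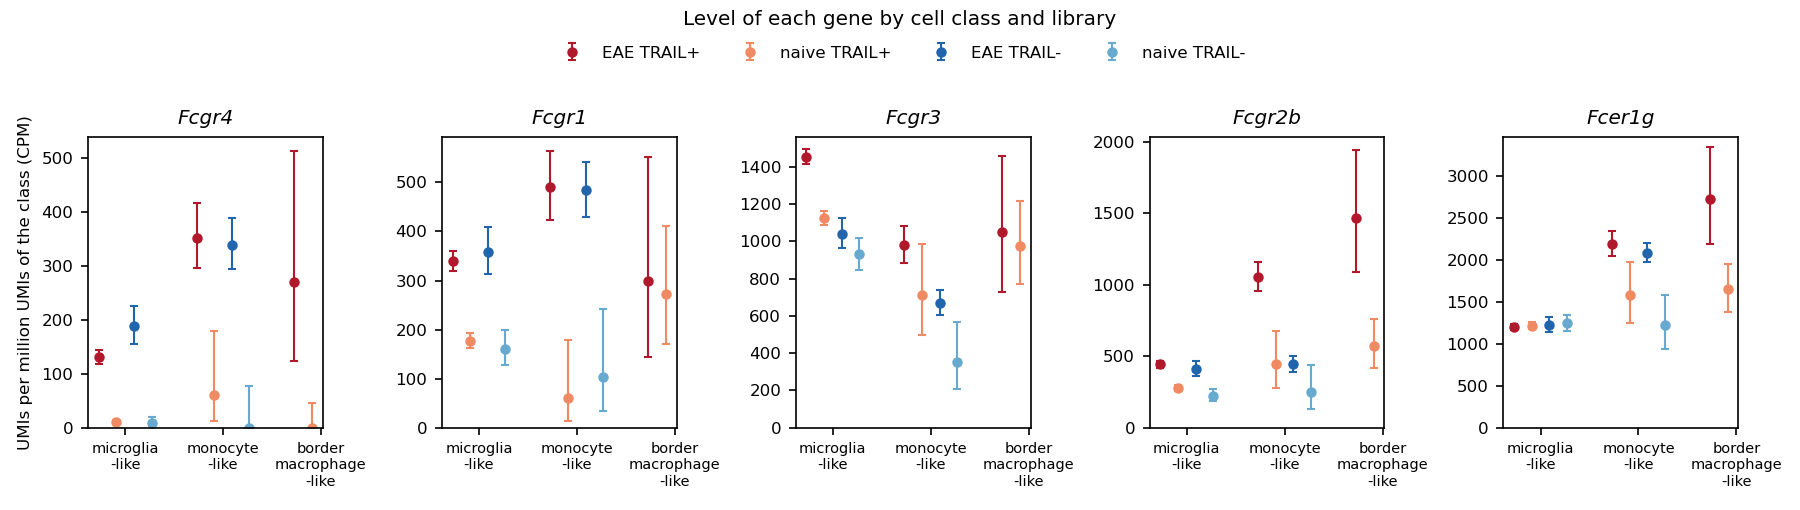
Level of each of the 5 genes (UMIs per 1000000 UMIs of the class, CPM, with exact 95% Poisson intervals) in microglia-like, monocyte-like and border macrophage-like cells, 1 point per library, colours giving the 4 libraries. Fcgr4 was at 130 and 188 CPM in the EAE and at 10.3 and 7.93 CPM in the naive microglia-like cells of the TRAIL+ and TRAIL- gates, while Fcer1g lay between 1205 and 1244 CPM in all 4.

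The microglia-like class joined 3 clusters that were built without the 5 genes. Clusters 0 (1848 cells) and 1 (1412 cells) were filled by both conditions. Cluster 4 (885 cells), led by the antigen presentation genes Cd74, H2-Eb1 and H2-Aa and the complement gene C4b, held 672 EAE TRAIL+, 187 EAE TRAIL-, 21 naive TRAIL+ and 5 naive TRAIL- cells. Cluster 4 was named microglia-like only in a second round, after the data had been seen. Fcgr4 was higher in EAE in each cluster that was compared. In the TRAIL+ gate it was at 85.6 CPM in EAE against 11 CPM in naive cells of cluster 0 (ratio 7.75, 4.41 to 14.3) and at 79.0 and 9.11 CPM in cluster 1 (ratio 8.67, 4.93 to 16.4). In cluster 4 it was at 195 CPM in EAE against 27.7 CPM in the few naive cells (ratio 7.02, 1.25 to 278). In the TRAIL- gate the ratio was 8.68 (2.08 to 50.8) in cluster 0 and 28.1 (4.47 to 1168) in cluster 1. The naive values behind 7.02 and 28.1 were 1 UMI each, and cluster 4 of the TRAIL- gate, with 5 naive cells, was not compared. The ratio over clusters 0 and 1 together was 8.05 in the TRAIL+ gate, against 12.6 with cluster 4 included.

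Fcgr1 and Fcgr2b had ratios above 1 in each cluster compared, though not every interval excluded 1. Fcgr1 had EAE over naive ratios of 1.87 (1.54 to 2.25), 1.74 (1.49 to 2.03) and 2.20 (1.01 to 6.03) in clusters 0, 1 and 4 of the TRAIL+ gate, and 1.84 (1.09 to 3.04) and 1.06 (0.606 to 1.82) in clusters 0 and 1 of the TRAIL- gate. Fcgr2b had 1.51 (1.29 to 1.76), 1.62 (1.42 to 1.84) and 1.09 (0.655 to 1.96), and 1.94 (1.26 to 2.96) and 1.62 (1.09 to 2.42). Thus the interval included 1 for Fcgr1 in cluster 1 of the TRAIL- gate and for Fcgr2b in cluster 4 of the TRAIL+ gate. Fcgr3 had 1.35, 1.35 and 1.82, and 1.35 (1.07 to 1.68) and 1.19 (0.958 to 1.49). Fcer1g had 0.907 (0.830 to 0.991), 0.924 (0.861 to 0.990) and 1.06 (0.788 to 1.46), and 1.13 (0.913 to 1.38) and 1.02 (0.839 to 1.25), so in clusters 0 and 1 of the TRAIL+ gate its intervals lay below 1.

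**Figure D2:**
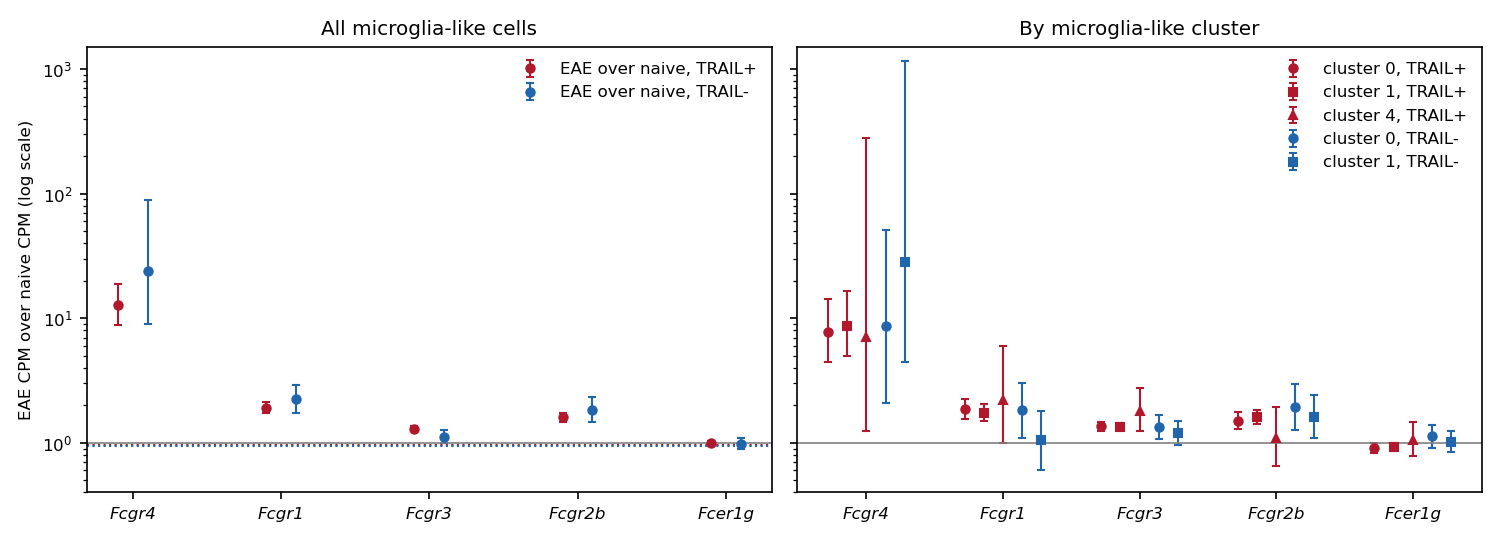
Ratio of EAE over naive CPM (log axis) for each gene in all microglia-like cells (left) and in each microglia-like cluster (right), with exact 95% intervals; the solid line marks 1 and the dotted lines the median of all compared genes. Fcgr4 stands at 12.6 and 23.7 on the left and between 7.02 and 28.1 on the right, with Fcer1g at 0.990 and 0.988 on the left and between 0.907 and 1.13 on the right.

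Markers of some other cell types, though not of all, were higher in EAE inside the microglia-like class. The summed level of the 11 microglia markers was 12528 CPM in EAE TRAIL+ against 16733 CPM in naive TRAIL+ cells, and 9517 CPM in EAE TRAIL- against 17598 CPM in naive TRAIL- cells. The 12 monocyte markers summed to 118 CPM in EAE TRAIL+ against 40.2 CPM in naive TRAIL+ cells, and to 507 CPM in EAE TRAIL- against 65.4 CPM in naive TRAIL- cells. T cell markers summed to 43.8 CPM in EAE TRAIL+ against 34.4 CPM in naive TRAIL+ cells, and to 196 CPM in EAE TRAIL- against 25.8 CPM in naive TRAIL- cells, and dendritic cell markers to 104 and 36.3 CPM, and 318 and 67.4 CPM. Border macrophage markers summed to 146 and 145 CPM, and 109 and 119 CPM, in the same order, and neutrophil markers to 379 and 377, and 360 and 372 CPM. B or plasma cell markers were lower in EAE, at 320 and 388 CPM, and 253 and 367 CPM. In EAE TRAIL- 3 cells held 65 of the 97 Plac8 UMIs, and 3 cells held 13 of the 16 Ly6c2 UMIs. The part of the T cell and dendritic cell markers in the results was not tested. Cells in which microglia markers made up under 1% of UMIs numbered 535 of 1626 in EAE TRAIL+ and 178 of 1887 in naive TRAIL+, and 171 of 312 in EAE TRAIL- and 41 of 320 in naive TRAIL-. Left without them, Fcgr4 was at 95.5 CPM in EAE TRAIL+ against 10.6 CPM in naive TRAIL+ cells, a ratio of 9.01, and at 158 CPM in EAE TRAIL- against 6.63 CPM in naive TRAIL- cells, a ratio of 23.8. The Fcgr4 difference was thus also present among cells with at least 1% microglia marker UMIs. Fcgr1 then had ratios of 1.97 and 3.03, Fcgr2b 1.46 and 1.65, Fcgr3 1.33 and 1.33, and Fcer1g 0.975 and 1.07.

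The share of cells with an Fcgr4 UMI was compared after each cell had been thinned to 500 UMIs. In microglia-like cells the share was 4.0% (3.10 to 5.07) in EAE TRAIL+ and 0.371% (0.149 to 0.763) in naive TRAIL+. It was 9.29% (6.31 to 13.1) in EAE TRAIL- and 0 of 320 cells in naive TRAIL-, which allows up to 0.938% at 3 cells (exact 95% upper limit 1.15%). Without thinning these shares were 14.8%, 1.48%, 19.2% and 1.25%. In endothelial-like cells, which should lack the receptor, the thinned share was 0.25% of 400 cells in EAE TRAIL- (0.5% unthinned, median depth 1021.5 UMIs) and 0 of 941 cells in naive TRAIL- (median depth 867 UMIs). The EAE microglia-like shares lay above these values, and the naive ones did not differ from them beyond their intervals. The EAE TRAIL+ library held only 3 endothelial-like cells and gave no background of its own.

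For Fcgr1 and Fcgr2b the thinned shares were higher in EAE than in naive cells in both gates, but only the TRAIL+ intervals lay apart. In the TRAIL- gate the EAE and naive intervals overlapped, at 9.32 to 17.0 and 4.36 to 10.2 for Fcgr1. For Fcgr2b they were 12.4 to 20.9 and 7.47 to 14.5 there. In the order EAE TRAIL+, naive TRAIL+, EAE TRAIL- and naive TRAIL- they were 12.9%, 7.10%, 12.8% and 6.88% for Fcgr1 (37.6%, 20.9%, 32.4% and 16.6% unthinned) and 17.6%, 12.3%, 16.3% and 10.6% for Fcgr2b (43.0%, 30.8%, 40.4% and 25.3% unthinned). Fcgr3 had 50.1%, 40.0%, 30.4% and 34.7% (81.9%, 72.1%, 60.3% and 62.8% unthinned), so in the TRAIL- gate its share was lower in EAE while its CPM was not, and no order is read from it. Fcer1g had 41.5%, 43.3%, 33.3% and 39.1% (74.8%, 73.6%, 63.8% and 66.6% unthinned).

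**Figure D3:**
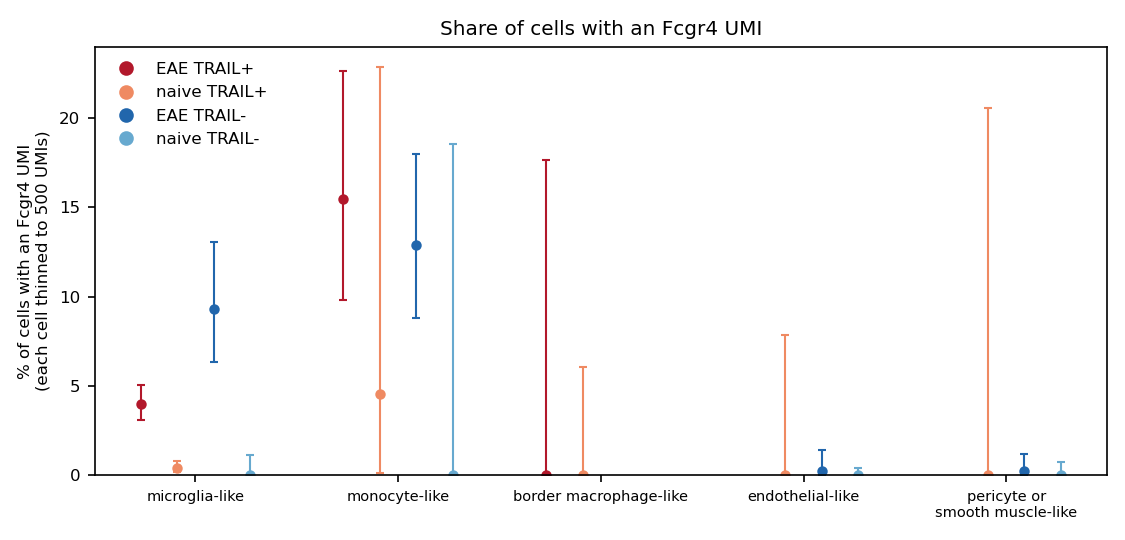
Share of cells with at least 1 Fcgr4 UMI after each cell was thinned to 500 UMIs (%, exact 95% binomial intervals) by class and library, with endothelial-like and pericyte-like cells as background. EAE microglia-like and monocyte-like cells lie between 4.0% and 15.4%, and the classes on the right at 0.25% or less.

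Within the EAE microglia-like cells, those with an Fcgr4 UMI were set beside those without one, as a description of libraries in which cells of more UMIs are more likely to show any gene. In EAE TRAIL+ 241 cells had an Fcgr4 UMI (median depth 2455 UMIs) and 1385 had none (1826 UMIs). By cluster, 38 of 430 cells of cluster 0, 63 of 524 of cluster 1 and 140 of 672 of cluster 4 had one. In EAE TRAIL- these were 8 of 73, 11 of 52 and 41 of 187. The 2 sets of cells thus also differ in cluster makeup, and its part in the values was not tested. Fcgr1 was at 424 CPM in the cells with and 319 CPM in the cells without, Fcgr2b at 598 and 406 CPM, Fcer1g at 1433 and 1151 CPM, and Fcgr3 at 1451 and 1456 CPM. Gbp2, an interferon-induced GTPase, was at 388 CPM in the cells with and 132 CPM in the cells without, and P2ry12, a receptor of homeostatic microglia, at 1111 and 1620 CPM. In EAE TRAIL- the 60 cells with an Fcgr4 UMI had 522 CPM (414 to 651) of Fcgr2b, against 378 CPM (324 to 438) in the 252 cells without. Fcgr1 was at 390 CPM (297 to 503) and 348 CPM (296 to 406), so for both genes the intervals overlapped. Fcer1g was at 1666 CPM in the cells with and 1087 CPM in the cells without. Fcgr3 was at 1303 CPM (1127 to 1498) in the cells with and 958 CPM (871 to 1051) in the cells without, unlike in EAE TRAIL+, and P2ry12 was at 899 and 889 CPM. Gbp2 was at 483 and 404 CPM there, and its intervals overlapped.

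**Figure D4:**
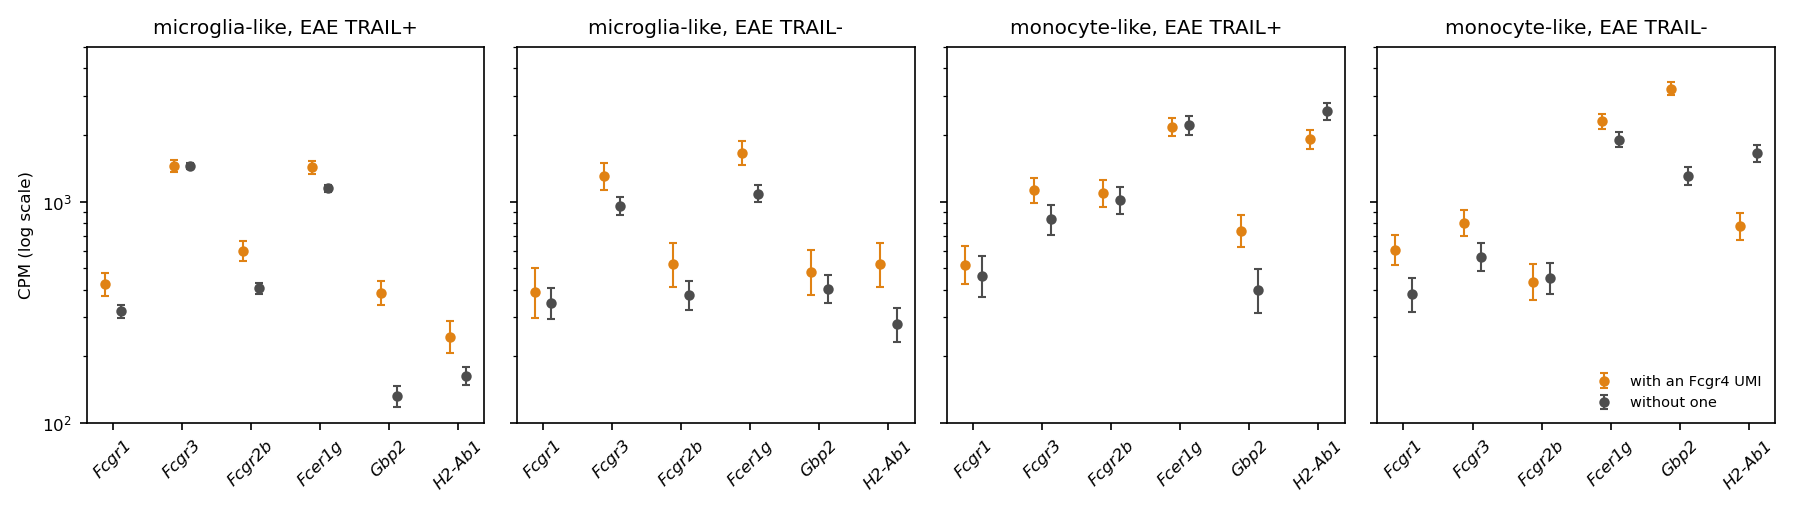
Level (CPM, log axis, exact 95% Poisson intervals) of the other 4 members, Gbp2 and H2-Ab1 in EAE cells with and without an Fcgr4 UMI, by class and library. Gbp2 is at 388 CPM with and 132 CPM without in EAE TRAIL+ microglia-like cells, while Fcgr3 is at 1451 and 1456 CPM there and at 1303 and 958 CPM in EAE TRAIL-.

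The activating to inhibitory ratio, the UMIs of Fcgr1, Fcgr3 and Fcgr4 over those of Fcgr2b, compares 3′ tags that are not scaled by length, so its size is one of captured molecules and not of receptors. In microglia-like cells it was 4.35 (4.11 to 4.61; 6287 over 1445 UMIs) in EAE TRAIL+ and 4.74 (4.40 to 5.11) in naive TRAIL+. It was 3.84 (3.35 to 4.43) in EAE TRAIL- and 4.91 (4.01 to 6.07) in naive TRAIL-. EAE over naive was 0.918 (0.835 to 1.01) and 0.782 (0.607 to 1.00), and both intervals included 1. Without the cells under 1% microglia markers the ratio was 4.77 in EAE TRAIL+ and 4.73 in naive TRAIL+ (EAE over naive 1.01, 0.907 to 1.12), and 4.84 in EAE TRAIL- and 4.72 in naive TRAIL- (1.03, 0.756 to 1.39). In cells with at least 1% microglia marker UMIs no shift of the summed balance was detectable at this depth.

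The makeup of the activating UMIs differed between conditions, with more Fcgr4 and less Fcgr3 in EAE. Fcgr4 was 6.76% of the activating UMIs in EAE TRAIL+ and 0.784% in naive TRAIL+ microglia-like cells, and 11.8% in EAE TRAIL- and 0.721% in naive TRAIL- cells. Fcgr3 was 75.6% in EAE TRAIL+ and 85.7% in naive TRAIL+, and 65.6% in EAE TRAIL- and 84.7% in naive TRAIL-. Set against Fcgr2b alone, Fcgr4 had 0.294 UMIs per Fcgr2b UMI in EAE TRAIL+ and 0.0372 in naive TRAIL+ (EAE over naive 7.91, 5.46 to 11.8), and 0.455 in EAE TRAIL- and 0.0354 in naive TRAIL- (12.9, 4.69 to 49.0). Fcgr3 per Fcgr2b was lower in EAE over the whole class. It was 3.29 in EAE TRAIL+ and 4.06 in naive TRAIL+ (0.810, 0.735 to 0.891), and 2.52 in EAE TRAIL- and 4.16 in naive TRAIL- (0.606, 0.467 to 0.785). The difference was smaller without the cells under 1% microglia markers. There Fcgr3 and Fcgr2b had EAE over naive ratios of 1.33 and 1.46 in TRAIL+, and 1.33 and 1.65 in TRAIL-. Cluster 4 of the TRAIL+ gate, with 21 naive cells, went the other way, with ratios of 1.82 for Fcgr3 and 1.09 for Fcgr2b. The other clusters compared were lower in EAE.

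**Figure D5:**
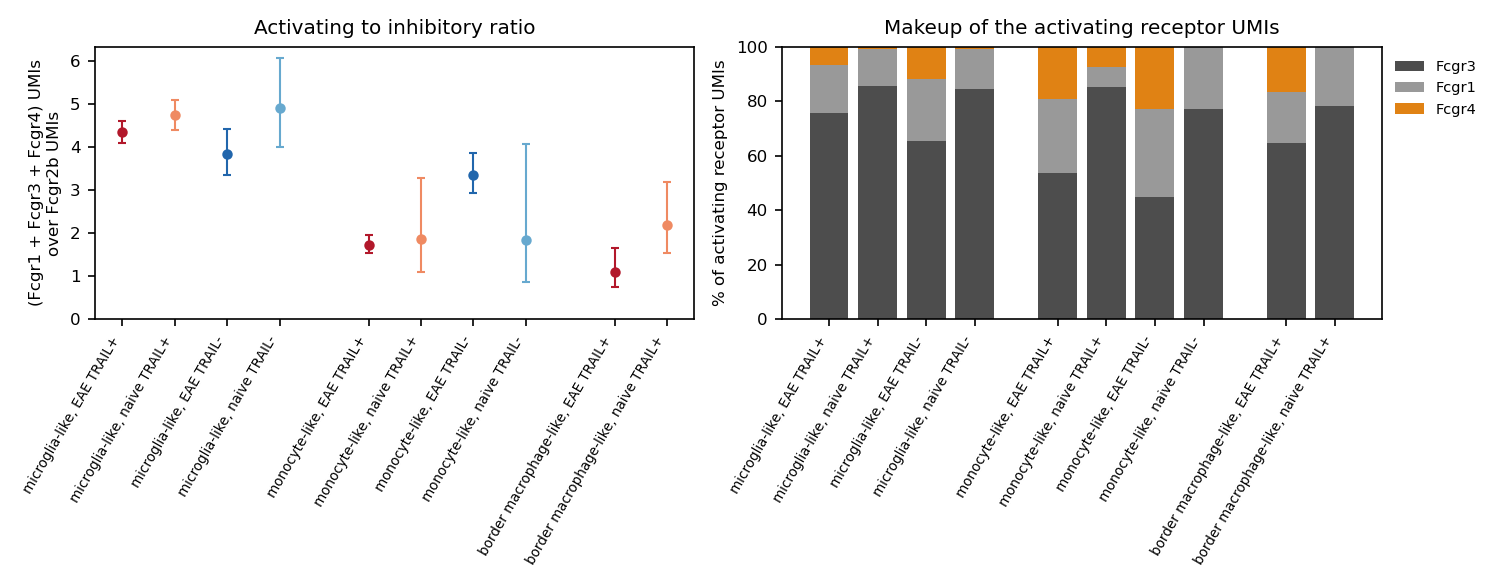
Left, UMIs of Fcgr1, Fcgr3 and Fcgr4 over UMIs of Fcgr2b with exact 95% intervals, by class and library; right, the percentage of the activating UMIs that each gene gave. The microglia-like ratios lie between 3.84 and 4.91, and Fcgr4 gives 6.76% and 11.8% of activating UMIs in the EAE and 0.784% and 0.721% in the naive libraries.

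Monocyte-like cells of the EAE libraries were set beside microglia-like cells of the same library. In EAE TRAIL+ Fcgr4 was at 352 CPM (295 to 416) in monocyte-like and 130 CPM in microglia-like cells (ratio 2.70, 2.21 to 3.29), and Fcgr2b at 1053 CPM (953 to 1160) and 442 CPM (2.38, 2.13 to 2.66). Fcer1g was at 2195 and 1205 CPM (1.82, 1.69 to 1.96), Fcgr1 at 490.3 and 339 CPM (1.45, 1.23 to 1.69), and Fcgr3 at 981 and 1455 CPM (0.674, 0.606 to 0.748). Fcgr4 and Fcgr2b, 2 of the 5, were at least 2-fold higher, where 15.6% of compared genes were higher and 15.3% lower. In EAE TRAIL- Fcgr4 was at 338 CPM in monocyte-like and 188 CPM in microglia-like cells (1.80, 1.42 to 2.28), and Fcer1g at 2088 and 1229 CPM (1.70, 1.55 to 1.86). There 0 of the 5 passed 2-fold (with TMM Fcgr4 did, at 2.03), where 16.5% of compared genes were higher and 15.6% lower, and Fcgr2b was at 444 and 413 CPM (1.07, 0.901 to 1.28).

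Fcgr3 was the member with a ratio below 1 in both of these comparisons, at 0.643 (0.567 to 0.730) in EAE TRAIL-. The activating to inhibitory ratio was 1.73 (1.53 to 1.96) in monocyte-like and 4.35 in microglia-like cells of EAE TRAIL+ (monocyte-like over microglia-like 0.398, 0.347 to 0.457). In EAE TRAIL- it was 3.36 (2.93 to 3.87) and 3.84 (0.875, 0.717 to 1.07). Monocyte-like cells had a ratio of 1.73 in EAE TRAIL+ and 1.86 (1.08 to 3.29) in naive TRAIL+ (EAE over naive 0.929, 0.519 to 1.62), and of 3.36 in EAE TRAIL- and 1.83 (0.869 to 4.06) in naive TRAIL- (1.83, 0.815 to 3.93), and both of these intervals included 1. Fcgr4 UMIs were split differently between the classes in the 2 gates, with 74.4% in microglia-like and 24.0% in monocyte-like cells in EAE TRAIL+, and 35.5% and 62.4% in EAE TRAIL-.

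Within EAE monocyte-like cells Fcgr2b was higher in the TRAIL+ than in the TRAIL- gate. It was at 1053 CPM in EAE TRAIL+ against 444 CPM in EAE TRAIL- cells (ratio 2.37, 2.03 to 2.78), and Fcgr3 at 981 and 671 CPM (1.46, 1.27 to 1.69). Fcgr4, Fcgr1 and Fcer1g had ratios of 1.04, 1.01 and 1.05. Fcgr2b was the 1 member of 5 past 2-fold, where 5.38% of compared genes were higher and 6.64% lower, and the activating to inhibitory ratio was 1.73 and 3.36 (0.515, 0.427 to 0.621). The split of 170 genes higher and 210 lower became 124 and 282 with DESeq2 size factors. The makeup of the class differed too. Plac8, a gene of inflammatory monocytes, was at 1035 CPM in EAE TRAIL+ against 4488 CPM in EAE TRAIL- cells, Ly6c2 at 269.6 and 589.5 CPM, the macrophage mannose receptor gene Mrc1 at 279.8 and 26.5 CPM, and Arg1, arginase 1, at 2213 and 866 CPM. The 11 microglia markers summed to 1774 CPM in EAE TRAIL+ against 661 CPM in EAE TRAIL- monocyte-like cells. The part of these differences in the Fcgr2b value was not tested.

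In microglia-like cells no member differed by 2-fold between the gates. Over the EAE libraries, TRAIL+ over TRAIL- was 1.40 (1.29 to 1.52) for Fcgr3 and 0.692 (0.562 to 0.857) for Fcgr4, and 0 of 5 members passed 2-fold, where 0.772% of compared genes were higher and 2.22% lower. Over the naive libraries, TRAIL+ over TRAIL- was 1.21 for Fcgr3 and 1.24 for Fcgr2b, and again 0 of 4 compared members passed, where 0.346% were higher and 0.817% lower. TMM moved the EAE ratios of TRAIL+ over TRAIL- by 0.23 on the log2 scale and turned the splits of 25 genes higher and 72 lower (EAE) and 11 higher and 26 lower (naive) into 93 and 37, and 30 and 9.

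The naive monocyte-like cells were few, 22 in TRAIL+ and 18 in TRAIL-, and a small number of them carried neutrophil genes. The 10 neutrophil markers summed to 323 CPM in EAE TRAIL+ and 596 CPM in EAE TRAIL- monocyte-like cells, against 49171 CPM in the naive TRAIL+ and 42014 CPM in the naive TRAIL- ones. In each naive library 3 cells had over 1% of UMIs in S100a8 and S100a9. Values without those cells are given for some of the results, and the other values include them. Plac8 had a UMI in 62 of 136 EAE TRAIL+ cells, against 2 of 22 naive TRAIL+ cells, and Mrc1 in 26 and 15 of them. Ly6c2 had a UMI in 33 and 1 of them, and H2-Ab1 in 107 and 16. All 94 Chil3 UMIs of the naive TRAIL+ cells lay in 1 cell. In TRAIL- cells Plac8 had a UMI in 185 of 225 EAE cells, against 8 of 18 naive cells, and Mrc1 in 6 and 6. At Leiden resolution 2 the monocyte-like class held 7 naive TRAIL+ cells, under the minimum of 10, so its TRAIL+ comparison was not made there. A cluster led by H2-Eb1, H2-Aa and H2-Ab1, named border macrophage-like at that resolution, held 16 naive TRAIL+ cells. The EAE over naive values of this class therefore set cells of unlike makeup side by side, and the part of that in the values was not tested. Fcgr4 was at 352 CPM in EAE TRAIL+ (137 UMIs) and 60.9 CPM (12.6 to 178; 3 UMIs) in naive TRAIL+ cells, a ratio of 5.77 (1.93 to 28.3). Without the S100a8 and S100a9 cells the naive TRAIL+ level was 99.9 CPM (3 UMIs), and the ratio was smaller. In the TRAIL- gate it was at 338 CPM in EAE and at 0 of 48079 UMIs in naive cells, which allows 62.4 CPM at 3 counts in that library, so Fcgr4 was at least 5.41-fold higher in EAE. Without the S100a8 and S100a9 cells the bound was 4.28.

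Fcgr1 showed the same side in monocyte-like cells, at 490.3 CPM in EAE TRAIL+ against 60.9 CPM (3 UMIs) in naive TRAIL+ cells (ratio 8.05, 2.71 to 39.4). TRAIL- cells had Fcgr1 at 484 CPM in EAE against 104 CPM (5 UMIs) in naive cells (4.65, 1.97 to 14.4). This TRAIL- ratio was 3.68 without the S100a8 and S100a9 cells. Without barcodes that another library also held, the TRAIL+ ratios were 4.54 for Fcgr1 and 3.23 for Fcgr4. Fcgr2b had ratios of 2.36 (1.54 to 3.80) and 1.78 (1.00 to 3.48), and the first was 1.44 without the S100a8 and S100a9 cells. Fcer1g had 1.39 (1.10 to 1.77; 0.970 without those cells) and 1.70 (1.31 to 2.25), and Fcgr3 had 1.38 (0.975 to 2.01) and 1.90 (1.17 to 3.29). In the TRAIL+ gate 3 of 5 members passed 2-fold (18.9% of compared genes higher, 12.7% lower), and in the TRAIL- gate 2 of 5 did (18.2% higher, 20.8% lower). TMM moved these ratios by 0.47 and 0.56 on the log2 scale and turned the splits of 546 higher and 366 lower, and 551 higher and 632 lower, into 903 and 172, and 1013 and 290. With TMM all 5 members passed 2-fold in the TRAIL- gate.

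Border macrophage-like cells were compared in the TRAIL+ gate, with 19 EAE and 59 naive cells. Their 11 border macrophage markers summed to 9837 CPM in EAE against 10839 CPM in naive cells, and the monocyte markers to 1080 and 61.7 CPM. Fcgr2b was at 1469 CPM (1087 to 1943; 49 UMIs) in EAE against 568 CPM (416 to 757; 46 UMIs) in naive cells, a ratio of 2.59 (1.69 to 3.96). Fcgr4 had 9 UMIs in 5 of the 19 EAE cells, 269.9 CPM (123 to 512), and 0 of 81001 UMIs in the naive cells. With 3 counts set in the naive library the ratio was 7.29, and its exact 95% lower limit was 4.79. Thinned to 500 UMIs no EAE cell kept an Fcgr4 UMI (26.3% unthinned), which allows up to 15.8% at 3 cells (exact 95% upper limit 17.6%). Fcgr2b was the 1 of the 4 members with enough UMIs to compare that passed 2-fold, where 10.4% of compared genes were higher and 16% lower (97 and 150 genes, or 44 and 228 with TMM).

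Fcer1g in border macrophage-like cells was at 2729 CPM in EAE against 1654 CPM in naive TRAIL+ cells (1.65, 1.25 to 2.17). Fcgr1 had 299.9 and 272 CPM (1.10, 0.467 to 2.43) and Fcgr3 1050 and 975 CPM (1.08, 0.701 to 1.62), with overlapping intervals. The activating to inhibitory ratio was 1.10 (0.735 to 1.66) in EAE and 2.20 (1.53 to 3.18) in naive cells, an EAE over naive value of 0.502 (0.289 to 0.874). It was below that of microglia-like cells of the same library in both, 0.253 (0.168 to 0.383) of it in EAE TRAIL+ and 0.463 (0.321 to 0.677) in naive TRAIL+. Over microglia-like cells, border macrophage-like Fcgr2b was 3.32-fold (2.45 to 4.42) in EAE TRAIL+ and 2.05-fold (1.49 to 2.76) in naive TRAIL+. With TMM scaling, which moved these comparisons by -0.79 and -0.49 on the log2 scale, they were 1.92 and 1.46, and the splits of 1045 genes higher and 543 lower (EAE) and 660 and 445 (naive) became 533 and 1144, and 338 and 833. Counted by UMI totals 3 of 5 members were at least 2-fold higher in EAE TRAIL+ (30.7% of compared genes higher, 16% lower) and 1 of 4 in naive TRAIL+ (20% higher, 13.5% lower). With TMM 0 members passed in either, with Fcer1g at 1.31 and Fcgr4 at 1.20 in EAE TRAIL+, and the interval of the Fcgr4 ratio by UMI totals (0.942 to 3.98) included 1.

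The genes that carry or stop the signal of these receptors mostly stayed within 2-fold in microglia-like cells, as did most compared genes. Of all genes compared in the TRAIL+ gate, 2.37% were at least 2-fold higher and 0.405% lower. Of 28 kinases and adaptors downstream of the activating receptors, 23 were compared in the TRAIL+ gate and 0 passed 2-fold in either direction (median log2 ratio -0.14, against -0.05 over all compared genes). The 2 of highest level, the small GTPase genes Cdc42 and Rac1, were at 488 CPM in EAE against 822 CPM in naive cells, and at 427 and 661 CPM. In the TRAIL- gate 0 of 21 were higher and 2 lower, where 8.17% of all compared genes were higher and 8.44% lower. The count of lower genes does not set this list apart. Rasgrp3, a Ras activator, fell to 133 CPM in EAE TRAIL- microglia-like cells, against 390.3 CPM in naive TRAIL- cells. Syk, the kinase that binds the phosphorylated activation motif, fell to 55.1 CPM in EAE TRAIL- cells, against 135 CPM in naive TRAIL- cells (34 and 68 UMIs). Cells under 1% microglia marker UMIs were 171 of 312 in EAE TRAIL- and 41 of 320 in naive TRAIL-. Their part in the Rasgrp3 and Syk values was not tested.

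Of 16 inhibitory phosphatases and adaptors 8 were compared in each gate and 0 passed 2-fold. Of all compared genes 2.37% were higher and 0.405% lower in the TRAIL+ gate, and 8.17% and 8.44% in the TRAIL- gate. Inpp5d, the SHIP1 phosphatase that Fcgr2b recruits, was at 510.5 CPM in EAE TRAIL+ against 549 CPM in naive TRAIL+ cells, and at 329 CPM in EAE TRAIL- against 503 CPM in naive TRAIL- cells. Tyrobp, the DAP12 adaptor that signals in parallel to Fcer1g, was at 928.5 CPM in EAE TRAIL+ against 807 CPM in naive TRAIL+ cells, and at 934 CPM in EAE TRAIL- against 685.5 CPM in naive TRAIL- cells. Fcrls, an Fc receptor-like gene of homeostatic microglia, was at 700.5 CPM in EAE TRAIL+ against 955 CPM in naive TRAIL+ cells, and fell to 350.2 CPM in EAE TRAIL- cells, against 955 CPM in naive TRAIL- cells.

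Some genes of the interferon gamma pathway, which is known to induce Fcgr1, were also at least 2-fold higher in EAE than in naive microglia-like cells. Of 16 such genes 5 of 11 compared were higher and 0 lower in the TRAIL+ gate (median ratio 1.93), where 2.37% of all compared genes were higher, and 9 of 14 were higher and 0 lower in the TRAIL- gate (median ratio 3.26), where 8.17% were. Their part in the Fcgr4 and Fcgr1 values was not tested. Iigp1, an interferon-induced GTPase, was at 121 CPM in EAE TRAIL+ against 3.54 CPM in naive TRAIL+ cells, and Gbp2 at 181 and 9.32 CPM. Socs3 and Ifngr1, the 2 of highest level, had ratios of 0.945 and 0.869 in the TRAIL+ gate. Between the 2 EAE libraries the interferon genes of monocyte-like cells lay on the other side from Fcgr2b. Of the 16, 8 were at least 2-fold lower in EAE TRAIL+ and 0 higher (median ratio 0.523), where 6.64% of compared genes were lower, with Gbp2 at 569.9 CPM in EAE TRAIL+ against 2176 CPM in EAE TRAIL-, and Cxcl9, a T cell chemokine, at 488 and 1707 CPM.

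The C-type lectins Clec4e, Clec4d and Clec4n, which also signal through Fcer1g, were all higher in monocyte-like than in microglia-like cells. Clec4e (Mincle) was at 696 CPM in monocyte-like and 2.75 CPM in microglia-like cells of EAE TRAIL+, and at 1172 and 8.11 CPM in EAE TRAIL-. Clec4n (dectin-2) was at 388 and 2.45 CPM in EAE TRAIL+, and at 283 and 6.48 CPM in EAE TRAIL-. These were 3 of 3 compared of the 11 other genes on that list, beside an Fcer1g ratio of 1.82 and 1.70 in the same comparisons. Unlike the 5 members these genes could enter the clustering, and Clec4e was among the leading genes of the monocyte-like cluster, so the direction is no independent result.

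Across the 10 sums of a class in a library that could be used, 4 of microglia-like, 4 of monocyte-like and 2 of border macrophage-like cells, the genes whose log2 level ran most like Fcgr4 were 1600014C10Rik (r = 0.92), Tap1 (0.92) and Rtp4 (0.91) among 3332 genes. Those most like Fcgr3 were Trim8 (0.95), Plod1 (0.94) and mt-Nd1 (0.94), and those most like Fcgr2b were Ube2s (0.93), Ubb (0.90) and Man2a1 (0.90). Those most like Fcgr1 were Slc31a1 (0.96), Gla (0.96) and Sec61a1 (0.94), and those most like Fcer1g were Man2a1 (0.98), Rftn1 (0.95) and Sh3pxd2b (0.94). Between members, Fcgr2b and Fcer1g ran closest (0.87), Fcgr4 and Fcgr1 had 0.62, and Fcgr3 and Fcer1g had 0.03. Sums of 1 library share its depth and preparation, and these values only describe the 10 sums.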

How the data were processed

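Single-cell libraries were made with the inDrops v3 protocol, per the labels' protocols, after papain digestion, 70 µm filtration, 30% Percoll and flow sorting. The authors deposited raw UMI counts per barcode and gene. Bowtie and GRCm38 are named in the submitters' processing notes; the Bowtie version, the annotation and the use of strand were not given in sources used here.

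The 4 files held 2803 (EAE TRAIL+), 3673 (naive TRAIL+), 2808 (EAE TRAIL-) and 3703 (naive TRAIL-) barcodes and 2856696 to 3984975 UMIs. Barcodes with at least 500 UMIs and at most 20% mitochondrial UMIs were kept. They were clustered without the 5 genes in scanpy 1.11.5 (Python 3.11.15; 2000 variable genes, 30 principal components, 15 neighbours, Leiden resolution 1, 15 clusters). A cluster took the name of the marker list with most genes among its 50 leading genes, with at least 3 required; 1 further cluster was named microglia-like in a second round, after the data had been seen, and clusters that met neither rule stayed unnamed. These names were rebuilt here and may differ from the study's own. Scrublet called 77 doublets, which were left in except in 1 alternative.

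UMIs were summed per class and library and given as CPM. A gene was compared with a mean of at least 50 CPM and at least 20 UMIs in the 2 libraries, and called past 2-fold. Level intervals are exact Poisson, ratio and share intervals exact Clopper-Pearson, and intervals of a ratio of ratios exact conditional. UMIs are not independent of the cell they come from, and cells share a library. A gene at 0 was set to 3 counts per library for a ratio, which is not the exact lower limit of that ratio. The sums and calls were tested on simulated data. The named genes are the 5 members, list genes past 2-fold with the 2 of highest level in each list, and the 3 genes most like each member, with log2(CPM + 10) used for likeness. 1 gene that this rule names is not reported here. The members and lists were chosen with earlier results of these data known. Scaling alternatives used edgeR 4.0.16 and DESeq2 1.42.0 in R 4.3.3.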

Additional observations from a re-analysis of the deposited data

Results flagged for a closer look

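The activating to inhibitory ratio of monocyte-like cells lay on opposite sides in the 2 gates, at 0.929 for EAE over naive in TRAIL+ and 1.83 in TRAIL-. The difference between the gates was not tested, both intervals included 1 (0.519 to 1.62 and 0.815 to 3.93), and the naive values rested on 22 and 12 Fcgr2b UMIs. Left without cells over 1% S100a8 and S100a9 UMIs, the naive TRAIL+ cells held 2 Fcgr1, 22 Fcgr3, 3 Fcgr4 and 22 Fcgr2b UMIs. The EAE TRAIL+ library held no such cell and kept its ratio of 1.73. In both gates the EAE over naive value then lay above 1, with no interval made for it. The part of those cells in the difference between the gates was not tested.

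Barcodes under 500 UMIs, which entered no comparison, also held several of the members at higher levels in the EAE than in the naive libraries. These barcodes, 978 and 1422 in the EAE and naive TRAIL+ libraries and 1180 and 1421 in the EAE and naive TRAIL- libraries, were not assigned to a class, and damaged cells and free RNA cannot be told apart there. In the TRAIL+ gate Fcgr4 was at 186 CPM in EAE and 31.9 CPM in naive barcodes (ratio 5.82, 2.86 to 13.1). Fcgr1 was at 278 CPM in EAE and 128 CPM in naive barcodes, and Fcgr2b at 524 and 159 CPM. Fcgr3 and Fcer1g had ratios of 1.15 (0.963 to 1.38) and 1.19 (0.974 to 1.44) there, and both intervals included 1. In the TRAIL- gate Fcgr4 was at 61.9 CPM in EAE and at 0 of 334086 UMIs in naive barcodes, at least 6.89-fold higher at 3 counts in that library. Fcgr2b was at 113 CPM in EAE and 18.0 CPM in naive barcodes, Fcgr3 at 360.4 and 183 CPM, and Fcer1g at 440.5 and 123 CPM.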

How the results depend on the processing

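No direction was reversed among called values under any alternative run. Of the EAE over naive ratios of members, 240 values under the alternatives stayed within the interval of the reported one and 23 did not; for activating to inhibitory ratios these were 80 and 27, for counts of genes 99 within 1.5 times and 37 beyond, and for Fcgr4 shares 2 and 6. Fcgr4 in microglia-like cells ranged from 8.05 to 14.0 in the TRAIL+ gate and from 14.9 to 28.8 in the TRAIL- gate, and Fcgr1 from 1.72 to 1.97 and from 1.39 to 3.03. No paired analysis was possible because each group had 1 library and the labels give no replicate numbers. For the same reason no replicate could be left out. The cause of a change was not tested unless stated.

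With TMM factors the TRAIL+ microglia-like ratios of EAE over naive were 1.72 (Fcgr1), 1.16 (Fcgr3), 1.43 (Fcgr2b) and 0.888 (Fcer1g), and monocyte-like Fcer1g was 1.91 in TRAIL+ and 2.51 in TRAIL-. With DESeq2 size factors Fcgr3 was 1.21 and Fcer1g 0.924 in TRAIL+ microglia-like cells, and monocyte-like Fcer1g 1.83 and 2.37. As means over cells, microglia-like Fcgr3 was 0.946 in TRAIL-, monocyte-like Fcer1g 1.09 in TRAIL+, and the activating to inhibitory ratio of EAE TRAIL- monocyte-like cells 2.81. At Leiden resolution 2 monocyte-like Fcgr4 had a TRAIL- ratio of 3.56 with 3 counts set in the naive library. The monocyte-like TRAIL+ comparison was not made at that resolution, with 7 naive cells. With classes from marker columns microglia-like Fcer1g was 1.10 in TRAIL-. Without cells under 1% microglia markers Fcgr2b was 1.46 in TRAIL+, Fcgr1 3.03 and Fcgr3 1.33 in TRAIL-, and the activating to inhibitory ratio 4.77 in EAE TRAIL+ and 4.84 in EAE TRAIL-. Leaving out barcodes held by more than 1 library moved the TRAIL+ monocyte-like ratios to 4.54 (Fcgr1) and 3.23 (Fcgr4).

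2 alternatives were chosen after seeing the data. Without cells over 1% S100a8 and S100a9, monocyte-like Fcgr2b was 1.44 and Fcer1g 0.970 in TRAIL+, and Fcgr4 at least 4.28-fold higher in TRAIL-. Without the cluster named in the second round, microglia-like Fcgr4 was 8.05 and Fcer1g 0.918 in TRAIL+ and Fcgr1 1.39 in TRAIL-, with 40 genes higher and 5 lower in TRAIL+.

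The ratio of each activating gene alone to Fcgr2b is smaller than their sum by construction. Fcgr1 gave 0.767, 0.640, 0.867 and 0.717 in microglia-like cells (EAE TRAIL+, naive TRAIL+, EAE TRAIL-, naive TRAIL-), 0.466, 0.136, 1.09 and 0.417 in monocyte-like cells, and 0.204 (EAE TRAIL+) and 0.478 (naive TRAIL+) in border macrophage-like cells. Fcgr3 gave 3.29, 4.06 and 2.52 in the first 3 of these microglia-like groups, 0.932 (EAE TRAIL+) and 1.51 (EAE TRAIL-) in monocyte-like cells and 0.714 (EAE TRAIL+) in border macrophage-like cells. Fcgr4 gave 0.294, 0.0372, 0.455 and 0.0354 in microglia-like cells, 0.334, 0.136 and 0.761 in the first 3 monocyte-like groups and 0.184 (EAE TRAIL+) in border macrophage-like cells. Without thinning the Fcgr4 shares were 14.8%, 1.48%, 19.2% and 1.25% in microglia-like cells, and 44.9% (EAE TRAIL+) and 36.0% (EAE TRAIL-) in monocyte-like cells.

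Counts of genes past 2-fold grew with a lower minimum, since more genes were compared. At 10 CPM they were 331 higher and 72 lower (TRAIL+) and 847 and 677 (TRAIL-) in microglia-like cells, with 836 and 829 higher in monocyte-like cells; with no minimum the TRAIL+ microglia-like counts were 1026 and 195 and the others as at 10 CPM. At a fold of 1.5 they were 273 higher and 171 lower, and 622 and 688, in microglia-like cells, 877 and 729, and 871 and 971, in monocyte-like cells, and 171 and 259 in border macrophage-like cells. With TMM 34 genes were lower in TRAIL+ microglia-like cells, the monocyte-like counts were 903 higher and 172 lower (TRAIL+) and 1013 and 290 (TRAIL-), and the border macrophage-like counts 44 and 228. With DESeq2 factors these were 27, 876 and 180, 944 and 322, and 44 higher.

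The naive monocyte-like and the EAE border macrophage-like values rest on 18 to 22 cells, and the naive Fcgr4 values on at most 32 UMIs.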
